A study of Bombyx mori with 3 samples.

Results

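The ecdysone receptor EcR, its partner USP, and the early response genes Br-c, E74, and E75 were followed across 3 stages of the silkworm silk gland and across its cells. The 5 genes were chosen by name from the 16880 gene features of the count tables. All 5 had transcripts in each library.

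Ecdysone is the steroid that times insect molting. It acts through a nuclear receptor made of EcR and USP, the insect counterpart of the vertebrate retinoid X receptor, which binds DNA as a pair and switches on a small set of transcription factors. In Drosophila these early genes include Br-c, which encodes zinc-finger proteins with a BTB domain, E74, which encodes ETS-domain proteins, and E75, a nuclear receptor that binds heme. Their products in turn act on later genes of the molt, and they were first known as puffs of the polytene chromosomes of fly salivary glands. The silk gland is a modified salivary gland that makes silk proteins between molts, so that the hormone's targets and the silk genes can be read in the same cells.

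Silk glands of Bombyx mori, Nistari strain, were taken from embryos 8 days after egg laying (E8D), from first-instar larvae at day 1 (1L1D), and from larvae in the first molt (1LM). The glands carried no transgene and received no treatment that the labels name. About 2000 glands were pooled, dissociated, and read as 1 single-cell library per stage, so stage and library cannot be told apart. Cells of a library are not replicates, so no test was made between stages, and each interval below is an exact 95% interval that covers counting error only.

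After quality control 4880 cells remained at E8D, 4339 at 1L1D, and 7125 at 1LM, with 6878383, 18546139, and 13120838 unique molecular identifiers (UMIs, each 1 counted transcript molecule). The median depth was 738, 1845, and 1465 UMIs per cell, and the median mitochondrial share was 14.4%, 15.6%, and 4.69%. Between 10 and 12 cell barcodes were shared by any 2 libraries. Of the markers of other tissues, the 5 muscle genes summed to 7.12, 45.8, and 84.9 CPM (UMIs scaled to a library total of 1000000), with A2 at 0 in all libraries. The hemocyte genes summed to at most 13.7 CPM and the fat body genes to at most 0.0762 CPM. Heavy-chain fibroin (FIBH), a product of the posterior gland, was found in 99.95% of cells at 1L1D and in all cells at 1LM, and the part of RNA from outside the cells in the values below was not tested.

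The gene records were EcR (NCBI Gene 692756), USP (693034), Br-c (692523), E74 (693011), and E75 (692595). In the later assembly ASM3026992v2, gene models overlap EcR, USP, Br-c, and E74, and none overlaps E75. Those overlapping models that the tables hold had at most 104 UMIs in a library, against 2461 for E74 in the same library. Counts are per gene, so isoforms such as those of EcR or E74 were not separated.

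EcR was lowest at 1L1D and highest at the molt. It had 552 UMIs at E8D (80.3 CPM, interval 73.7 to 87.2), 405 at 1L1D (21.8 CPM, 19.8 to 24.1), and 2380 at 1LM (181 CPM, 174 to 189). The 3 intervals did not overlap. USP followed another course, with 76 UMIs at E8D (11.0 CPM, 8.71 to 13.8), 403 at 1L1D (21.7 CPM, 19.7 to 24.0), and 305 at 1LM (23.2 CPM, 20.7 to 26.0). Its intervals at 1L1D and 1LM overlapped, and E8D lay below both. The 2 parts of the receptor therefore did not move together. For each USP molecule 7.26 EcR molecules were counted at E8D (5.71 to 9.36), 1.00 at 1L1D (0.873 to 1.16), and 7.80 at 1LM (6.92 to 8.82). This ratio is free of the scaling of the libraries, but not of the length and capture of the 2 transcripts, so its course over stages can be read and its size cannot.

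Br-c moved most of the 5. It had 1581 UMIs at E8D (230 CPM, 219 to 241), 458 at 1L1D (24.7 CPM, 22.5 to 27.1), and 16652 at 1LM (1269 CPM, 1250 to 1289). E74 had 529 UMIs at E8D (76.9 CPM, 70.5 to 83.7), 381 at 1L1D (20.5 CPM, 18.5 to 22.7), and 2461 at 1LM (188 CPM, 180 to 195). E75 had 722 UMIs at E8D (105 CPM, 97.4 to 113), 828 at 1L1D (44.6 CPM, 41.7 to 47.8), and 2353 at 1LM (179 CPM, 172 to 187). All 3 early genes shared the order of EcR, with 1L1D lowest, E8D between, and 1LM highest in CPM, though E75 stood lower at 1LM than at E8D with TMM or DESeq2 factors. The 5% deepest cells held 35.2% (Br-c) to 46.1% (USP) of each gene's UMIs at E8D, 24.8% to 32.8% at 1L1D, and 12.3% to 16.4% at 1LM.

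**Figure D1:**
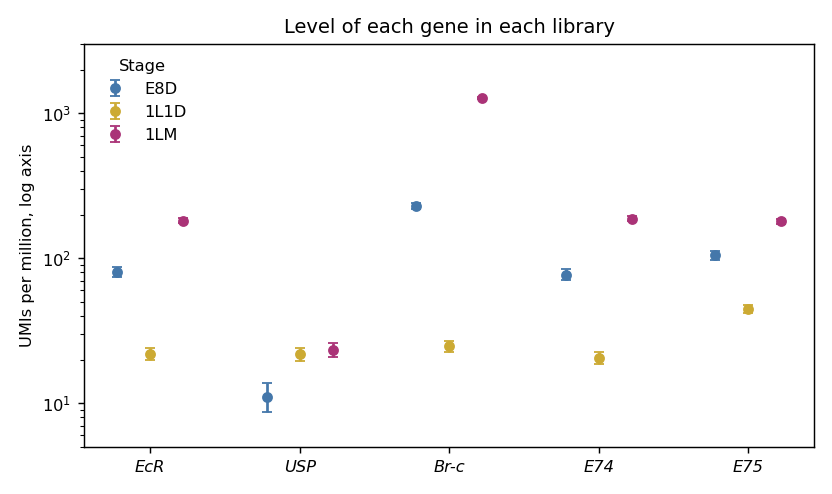
CPM (log axis) of the 5 genes, 1 point per library with exact 95% Poisson intervals that cover counting error only. EcR, Br-c, E74, and E75 were lowest at 1L1D and highest at 1LM, while USP was lowest at E8D (11.0), and with TMM or DESeq2 factors USP is lower at 1LM than at 1L1D and E75 lower at 1LM than at E8D.

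The molt was set against the day-1 larva first. In CPM, 4 of the 5 genes were at least 2-fold higher at 1LM, and the same held for 59.6% of the 9534 genes with at least 20 UMIs over both libraries, while 5.61% were at least 2-fold lower. The count of 4 is thus to be read against a library in which most genes stood higher, with a median log2 ratio of 1.23. Br-c was 51.4-fold higher, a log2 ratio of 5.68 (5.55 to 5.82), at percentile 97.2 of all genes. E74 was 9.13-fold higher (3.19, 3.03 to 3.35, percentile 88.4) and EcR 8.31-fold higher (3.05, 2.90 to 3.21, percentile 87.4). E75 was 4.02-fold higher (2.01, 1.89 to 2.12), at percentile 75.4. USP had a log2 ratio of 0.10 (-0.12 to 0.32), at percentile 13.6, and became -1.03 with TMM factors and -1.06 with DESeq2 size factors, so its direction depended on the scaling. With these factors 22.1% and 21.7% of genes were at least 2-fold higher and 14.0% and 14.6% lower, and 3 of the 5 genes, EcR, Br-c, and E74, were still at least 2-fold higher.

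Against the embryo the same 5 genes stood near the middle of all genes, apart from Br-c. In CPM, 4 of 5 were at least 2-fold higher at 1LM than at E8D, beside 51.1% of 9214 genes higher and 6.26% lower, with a median log2 ratio of 1.04. Br-c was 5.52-fold higher (2.47, 2.39 to 2.54) at percentile 79.7. E74 was 2.44-fold higher (1.29, 1.15 to 1.42), EcR 2.26-fold (1.18, 1.04 to 1.31), and USP 2.10-fold (1.07, 0.71 to 1.46), at percentiles 56.1, 53.6, and 50.9. These 3 genes thus passed 2-fold at about the level of the median gene. E75 had a log2 ratio of 0.77 (0.65 to 0.90), and with TMM or DESeq2 factors it turned to -0.09 and -0.14. With DESeq2 factors, under which 30.5% of genes were higher and 19.9% lower, Br-c alone of the 5 was at least 2-fold higher, at a log2 ratio of 1.56, and with TMM factors (31.8% and 18.9%) the count was also 1.

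Between the embryo and the day-1 larva EcR and the early genes stood lower, and USP higher. In CPM, 4 of 5 were at least 2-fold lower at 1L1D than at E8D, beside 21.7% of 8332 genes lower and 16.5% higher, with a median log2 ratio of -0.20. Br-c was 9.31-fold lower (-3.22, -3.37 to -3.07), at percentile 1.87 of all genes. E74 was 3.74-fold lower (-1.90, -2.10 to -1.71) and EcR 3.67-fold lower (-1.88, -2.07 to -1.69), at percentiles 5.94 and 6.15. E75 was 2.35-fold lower (-1.23, -1.38 to -1.09) and USP had a log2 ratio of 0.98 (0.62 to 1.35). With TMM and DESeq2 factors and relative to the median gene EcR, Br-c, E74, and E75 stayed lower at 1L1D and USP higher, and with TMM factors 3 of the 5 were at least 2-fold lower, since E75 came to -0.97. With DESeq2 factors the count was also 3, beside 15.3% of all genes lower and 21.0% higher, so that the balance of all genes turned. The 3 comparisons share libraries, so they are not independent of each other.

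**Figure D2:**
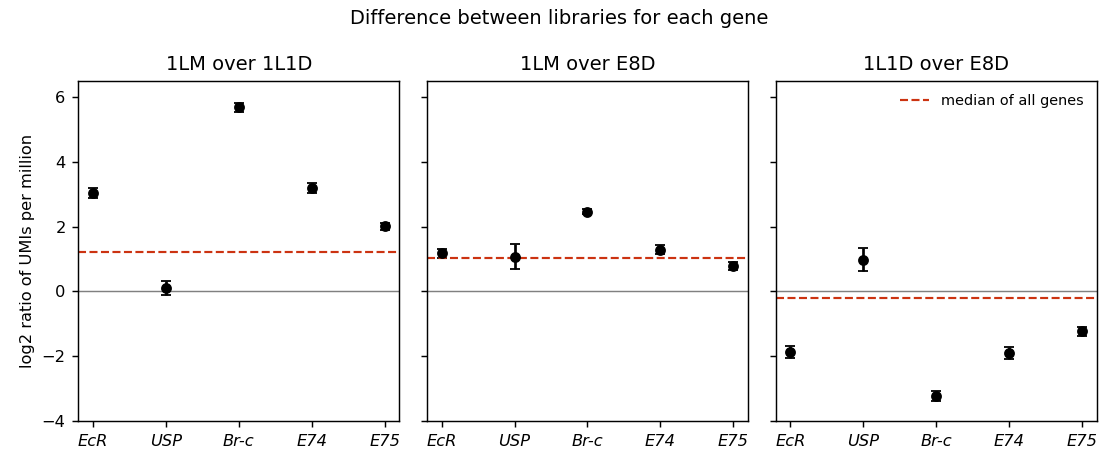
log2 ratio of CPM between 2 libraries for each gene (points, with exact 95% binomial intervals that cover counting error only) and the median over all genes with at least 20 UMIs (dashed line). Br-c lay at 5.68 and 2.47 in the comparisons with 1LM and at -3.22 between 1L1D and E8D, while the sign of USP (1LM over 1L1D) and of E75 (1LM over E8D) turns with TMM or DESeq2 factors.

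The share of cells with a transcript was then taken at equal depth. Each cell was thinned to 1000 UMIs, which left 1462 cells at E8D, 4339 at 1L1D, and 5382 at 1LM and left out 3418, 0, and 1743 shallower ones. Br-c was found in 17.8% of thinned cells at E8D (15.9 to 19.8), 2.40% at 1L1D (1.96 to 2.90), and 54.0% at 1LM. EcR was found in 6.84%, 1.54%, and 16.5%, and E74 in 5.47%, 1.34%, and 16.4%. E75 was found in 8.82%, 3.69%, and 16.6%. USP was the rarest, in 0.684% (0.328 to 1.25), 1.91% (1.53 to 2.37), and 2.08% of thinned cells, and its intervals at 1L1D and 1LM overlapped. All 5 genes were thus found in the largest share of cells at 1LM, as were 73.9% of 8316 genes. Without thinning, the shares at E8D, 1L1D, and 1LM were 8.22%, 7.44%, and 24.3% for EcR, 17.8%, 7.58%, and 68.1% for Br-c, 7.83%, 7.19%, and 24.0% for E74, and 10.5%, 13.4%, and 26.0% for E75. For USP they were 1.48%, 7.65%, and 3.93%, so that 1L1D, the deepest library, came first. No cell type is known to lack these genes, so no share was taken as the background.

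**Figure D3:**
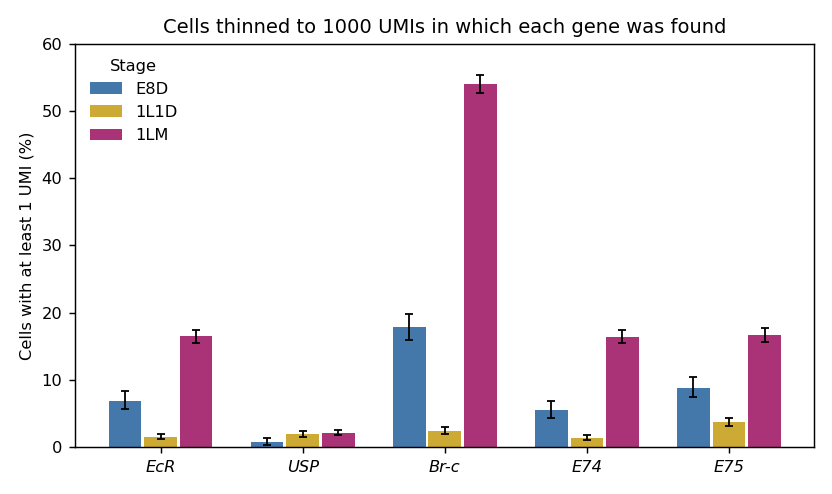
Percent of cells with at least 1 UMI of each gene after every cell was thinned to 1000 UMIs, for the 3 libraries, with exact 95% binomial intervals that cover counting error only. Br-c was found in 54.0% of 1LM cells and 2.40% of 1L1D cells, and the intervals of USP at 1L1D and 1LM overlap.

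Most cells with a given gene had 1 UMI of it, apart from Br-c at 1LM. Of the 4849 cells with Br-c at 1LM, 2063 had 1 UMI, 2786 had 2 or more, and 807 had 5 or more, with 73 in the richest cell. At E8D 58 of 870 cells had 5 or more and at 1L1D 10 of 329. EcR reached at most 10 UMIs in a cell at 1LM, E74 12, E75 6, and USP 4. Cells with EcR or USP thus mostly differed by whether 1 molecule was counted.

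The 1LM cells were grouped within their own library, without the 5 genes and the pathway genes, to see where each gene was high. Clusters are numbered by size and called by the type whose markers they carried. The types are those of the study, with ECR for epithelial cell remodeling and CM for chitin metabolism in the anterior gland, SPS and SPC for sericin synthesis and catabolism in the middle gland, and FPS and FPC for fibroin synthesis and catabolism in the posterior gland. The study drew these markers from the same libraries. Of the 11 clusters, 4 stayed unnamed, with 42.8% of the cells. No cluster was named for DRR, the death and remodeling regulation cells of the posterior gland, though their markers were also used. The study counts DRR among the dominant types at 1LM, and where such cells fell among these clusters was not tested. All 5 genes differed at least 2-fold between the highest and lowest cluster, which says little, since 97.3% of 6689 genes did.

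Br-c was concentrated in the catabolism clusters. It reached 5538 CPM (5371 to 5708) in the SPC-like cluster 9 and 3432 CPM (3336 to 3531) in the FPC-like cluster 5, and was found in 97.6% and 90.7% of their thinned cells. The next cluster, the unnamed cluster 1, had 1060 CPM, and the lowest, the unnamed cluster 11, had 390 CPM with 41 UMIs. Clusters 5 and 9 together were 13.9% of the cells and held 53.9% of all Br-c UMIs. In the cluster of fewest positive cells Br-c was still found in 25.5% of thinned cells. Against all other 1LM cells its log2 ratio was 2.45 in cluster 9 and 1.76 in cluster 5, above 98.7% and 95.7% of genes in the same clusters. With both clusters left out, a choice made once the values were known, Br-c came to 700 CPM at 1LM and was 28.3-fold above 1L1D and 3.04-fold above E8D. The other ratios of 1LM over E8D then lay under 2-fold, at 1.93 for EcR, 1.97 for E74, 1.68 for E75, and 1.31 for USP. Against 1L1D EcR was 7.09-fold, E74 7.36-fold, and E75 3.95-fold higher, and USP had a log2 ratio of -0.58 (-0.86 to -0.32).

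EcR and E74 had the same 4 leading clusters, of which clusters 5 and 9 also led in Br-c and clusters 7 and 2 were among its lowest 4. EcR was highest in the ECR-like cluster 7 (424 CPM, 383 to 468), then in cluster 5 (359), the ECR-like cluster 2 (256), and cluster 9 (239), and lowest in the unnamed cluster 10 (60.1). E74 was highest in cluster 7 (428 CPM, 387 to 473), then in clusters 5 (385), 9 (351), and 2 (285), and lowest in cluster 11 (38.0, with 4 UMIs). The intervals of clusters 7 and 5 overlapped for both genes. The ECR-like clusters 2 and 7 held 18.8% of the cells, 34.4% of the EcR UMIs, and 35.4% of the E74 UMIs, but 6.37% of the Br-c UMIs. They had 410 CPM of Br-c, a log2 ratio against other cells of -1.81 in cluster 2 and -1.64 in cluster 7, below all but 1.82% and 2.77% of genes. Against other cells EcR had a log2 ratio of 1.38 in cluster 7 and 1.16 in cluster 5, above 91.3% and 85.7% of genes. In clusters 2 and 9 EcR had 0.58 and 0.42, above 64.3% and 60.4% of genes, nearer the middle. Raised EcR thus went with high Br-c in the catabolism clusters and with low Br-c in the anterior remodeling clusters. This was clearest in clusters 5 and 7.

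USP was uneven across the clusters, with an 11.9-fold range against 14.2-fold for Br-c, and E75 was the most even of the 5. USP reached 71.6 CPM (53.8 to 93.4, 54 UMIs) in cluster 9 and 65.8 CPM (53.0 to 80.7, 92 UMIs) in cluster 5, and these held 47.9% of its UMIs. Its other clusters ranged from 5.99 CPM in cluster 3 to 25.8 CPM in cluster 7, on 1 to 34 UMIs each. E75 was nearly even, from 105 CPM in cluster 11 (11 UMIs) to 227 CPM in cluster 5 (203 to 254), a 2.17-fold range, while the median gene had a log2 range of 2.40. It was second highest in the unnamed cluster 3 (222 CPM), which had P25 and Fib-l among its 10 leading genes and the lowest USP. Leaving the silk genes out of the clustering took the range of E75 to 1.94-fold.

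Other features of the cells moved with these clusters. The median ribosomal protein share was 14.6% to 19.2% in clusters 9, 2, 7, and 5, the 4 that led in EcR and E74, and 22.1% to 35.1% elsewhere. These 4 clusters also had the most genes per thinned cell, a median of 574 to 618 against 452 to 523. The part of these features in the gene levels was not tested. The mitochondrial share, 2.79% to 4.27% in these 4 and 2.57% to 7.24% in the others, did not set them apart.

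**Figure D4:**
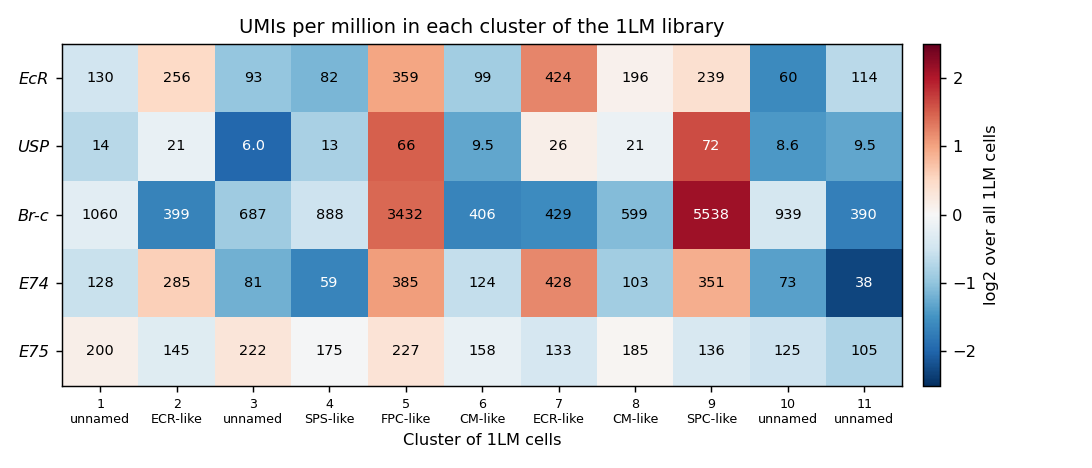
CPM of each gene in the 11 clusters of 1LM cells (numbers), colored by the log2 ratio over all 1LM cells. Br-c was highest in the SPC-like cluster 9 (5538) and the FPC-like cluster 5 (3432), EcR and E74 in the ECR-like cluster 7 (424 and 428), and E75 stayed between 105 and 227.

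The sericin-synthesizing class could be followed through all stages. SPS-like cells were cluster 3 at E8D (789 cells), clusters 3 and 6 at 1L1D (916), and cluster 4 at 1LM (758). In them Br-c had 382 CPM at E8D, 53.2 at 1L1D, and 888 at 1LM, a log2 ratio of 4.06 between 1LM and 1L1D and of 1.22 (1.08 to 1.36) between 1LM and E8D. EcR had 93.0, 12.3, and 81.9 CPM. E74 had 72.9, 7.84, and 59.4 CPM. In this class the log2 ratios of 1LM over E8D in CPM were -0.18 (-0.53 to 0.16) for EcR and -0.30 (-0.69 to 0.10) for E74, so the difference seen over all cells was not seen here. E75 had 101, 31.7, and 175 CPM, and USP had 9.36, 14.7, and 13.2 CPM with overlapping intervals. The lower level at 1L1D was also present within this class, for EcR, Br-c, E74, and E75. FPS-like cells, named at E8D (cluster 5) and 1L1D, gave log2 ratios of 1L1D over E8D of -2.84 for EcR, -3.34 for Br-c, -3.49 for E74, -2.09 for E75, and 0.07 for USP. The unnamed E8D cluster 4, with FPS as its best type (0.76), was left out. It had 70.0 CPM of EcR, 231 of Br-c, and 53.3 of E74, against 94.1, 277, and 89.5 in cluster 5. At 1LM the unnamed clusters 1 and 3 had FPS as their best type, at 0.30 and 0.22. LSF-like cells (liquid silk fibrosis, in the anterior gland, cluster 6 at E8D and 7 at 1L1D) differed from the SPS-like and FPS-like cells. There Br-c had -4.30 and E74 -1.28, but EcR had -0.78 (-1.59 to 0.11), and E75 0.06 (-0.56 to 0.74), on 16 and 24 UMIs at E8D. USP had 1 UMI in this class at E8D and 52 at 1L1D. The values of this class depend on which clusters were named. At E8D the unnamed cluster 7 also had LSF as its best type, with a median marker log2 ratio of 3.14 against 2.55 in cluster 6. It was left out of the class. It had 135 CPM of EcR, 133 of E74, and 123 of E75, against 57.2, 71.5, and 85.8 in cluster 6, but less Br-c (22.7 against 114).

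At the earlier stages Br-c was low in some clusters that were high in EcR and E74, and also in others that were not. At 1L1D the TR-like clusters 5 and 8, which carried the markers of the traction-force cells of the anterior gland, had 7 Br-c UMIs in 667 cells, or 1.24 CPM. None of 432 thinned cells of cluster 5 had a Br-c UMI, which allows a share of up to 0.694% by a floor of 3 counts (exact upper limit 0.850%), and before thinning the cluster had 3 UMIs. The LSF-like cluster 7 also had little Br-c (5.80 CPM) beside 33.2 CPM of EcR and the highest E75 (89.6 CPM), and the unnamed cluster 2 had 8.16 CPM of Br-c with 12.2 CPM of EcR. The TR-like clusters held 44.7% of the EcR, 47.1% of the USP, 56.4% of the E74, and 38.4% of the E75 UMIs of the library, in 15.4% of its cells and with 30.4% of all its UMIs. EcR had 32.1 CPM there and E74 38.1, against 12.3 and 7.84 in SPS-like cells. Of the TR-like clusters, cluster 5 had 36.3 CPM of EcR, while cluster 8 had 21.1 against 21.8 in the other cells of the library. The unnamed cluster 2 was below its other cells in EcR, which had 22.3 CPM. Br-c was highest in the unnamed cluster 9 (76.9 CPM, 63.3 to 92.7). The best type of this cluster was SPC, with a median marker log2 ratio of 2.48. It stayed unnamed because its 10 leading genes held a marker of another type and none of SPC. At E8D the unnamed cluster 7 had the least Br-c (22.7 CPM, 13.2 to 36.3) but the most EcR (135), E74 (133), and USP (24.0), and SPS-like cluster 3 had the most Br-c (382 CPM, 351 to 414). At each stage, then, a cluster with the highest EcR and E74 was among those low in Br-c.

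Detection in the same cell was counted next, on cells thinned to 1000 UMIs, against the product of the shares of the 2 genes. At 1LM 8 of the 10 pairs were found together more often than the product, with a median ratio of 1.07. Between 48.8% (E75) and 62.6% (EcR) of 6214 genes were found with a given member more often than the product, with 54.4% for USP, 57.1% for Br-c, and 61.0% for E74. The median ratio over these genes was 1.09 for EcR and for E74, 1.06 for USP, 1.02 for Br-c, and 0.996 for E75. EcR and USP, the 2 parts of the receptor, had the highest ratio, 1.46, on 27 cells against 18.4 by the product. EcR and E74 were found together in 188 cells against 146, a ratio of 1.29, and USP and Br-c in 79 against 60.5, a ratio of 1.31. Br-c shared 498 cells with EcR (ratio 1.04), 510 with E74 (1.07), and 514 with E75 (1.06). Among all genes paired with EcR, the ratio of USP lay above 88.6%, E74 above 75.1%, Br-c above 42.9%, and E75 above 41.7%. The lowest ratio was that of USP and E75, 0.913 on 17 cells, and E74 with E75 had 1.00.

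When the product was taken within each cluster, also a choice made with the ratios known, the values at 1LM lay between 0.886 and 1.14 and 6 of 10 exceeded 1. EcR with E74 came to 0.995 and EcR with USP to 1.14. The joint detection of EcR and E74 over all cells was thus as large as their shares per cluster give. In all, 1500 thinned cells at 1LM had none of the 5 genes, 2410 had 1, 1163 had 2, 289 had 3, 19 had 4, and 1 had all 5. The 309 cells with 3 or more compare with 247 by the product of shares, while the 1163 cells with 2 compare with 1201. With 2 or more there were 1472 cells against 1448. Sets of other genes were not counted in this way. At E8D 13 cells had 3 or more against 4.46, and at 1L1D 2 against 0.389, with 9 and 7 of 10 pairs above the product. Of all genes, 34.2% (USP) to 61.1% (Br-c) were found with a given member more often than the product at E8D, and 52.8% to 55.2% at 1L1D. Of the pairs at 1L1D none had over 4 cells, and Br-c with E75 at E8D had the most cells of the E8D pairs, 34 against 22.9. The E8D pairs with USP had at most 3 cells, since 10 thinned cells had USP.

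**Figure D5:**
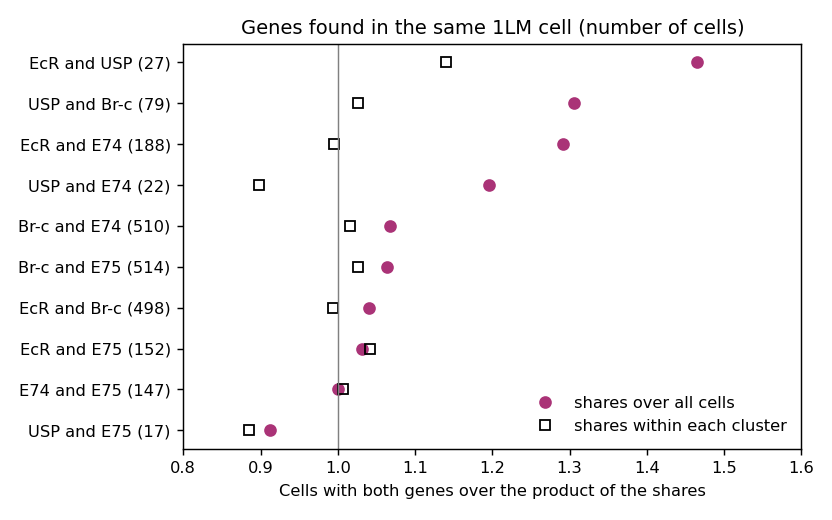
Cells with both genes divided by the product of their shares, for the 10 pairs in 5382 thinned cells of 1LM, with shares taken over all cells (filled circles) or within each cluster (open squares) and the number of cells in brackets. EcR with E74 moved from 1.29 to 0.995 and EcR with USP from 1.46 to 1.14.

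The genes that went with each member were ranked by Pearson's r of ln(1 + UMIs) across the 5382 thinned cells of 1LM, all of 1 library and 1 depth, among the 2459 or 2460 genes found in at least 5% of them. These are descriptions. Br-c had the highest values, with LOC110385036 (r = 0.37), LOC101739197 (0.37), LOC101735682 (0.35), and the long noncoding RNAs LOC110385179 (0.34) and LOC105842375 (0.31), the last of which is an FPC marker. E74 was followed by LOC110385036 (0.23), LOC101746298 (0.21), LOC733061 (0.21), LOC101736421 (0.18), and LOC692894 (0.18). EcR was followed by LOC110385036 (0.19), LOC101740250 (0.17), LOC733061 (0.16), LOC101746298 (0.16), and LOC101746970 (0.16). LOC110385036, found in 74.1% of the cells, thus came first for EcR, Br-c, and E74, and EcR and E74 had 3 of their 5 genes in common. For USP the highest r was 0.12 (LOC101739197), followed by LOC101743689, LOC733061, LOC101737037, and LOC110385036. For E75 it was 0.07 (Fib-l, then FIBH, LOC692390, RpP0, and LOC101741897), which is too weak to be read. No member was among the nearest genes of another, but USP, found in 2.08% of the cells, was under the 5% limit and could not be listed. The r between members was at most 0.10 (USP and Br-c). At 0.0973 it lay just under the 0.0982 of LOC110385036, the fifth gene for USP.

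Across the 11 clusters of 1LM the order of the members was clearer. On log2(CPM + 1), EcR with E74 had r = 0.86, EcR with USP 0.80, USP with E74 0.79, and USP with Br-c 0.72. Br-c had 0.41 with E74 and 0.24 with EcR, and E75 had 0.08 to 0.29 with the other 4. The genes nearest to EcR were LOC101738546 (r = 0.97), LOC101735906, LOC101739159, LOC101742695, and LOC101744331. Those nearest to Br-c were LOC101746524 (0.98), ST5, LOC101741355, LOC101736677, and LOC110386541, and those nearest to E74 were LOC101737209 (0.99), LOC101735855, LOC101743514, LOC101737111, and LOC110385385. USP was nearest to SRC-2 (0.96), LOC101745412, LOC110385928, which is an FPC marker, LOC110385100, and LOC110385892. E75 was nearest to LOC101739090 (0.90), dimm (0.88), LOC101738086, LOC101740411, and CPR122, of which dimm encodes a transcription factor that the study lists among regulators of silk protein genes. These are the highest values among all genes ranked, over 11 points of 1 library, and are a description only.

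The silk protein genes were set beside the members cell by cell. At 1LM cells with Br-c gave a median of 3.41% of their UMIs to silk protein genes and cells without it 2.12%, after the UMIs other than silk were thinned. For EcR the values were 2.82% and 2.84%, for E74 2.66% and 2.87%, for E75 3.15% and 2.75%, and for USP 3.39% and 2.83%. At 1L1D cells with Br-c had 4.22% against 2.24%, while those with E74 had 0.841% against 2.32%, those with USP 1.21% against 2.30%, and those with EcR 1.63% against 2.30%. Cells with Br-c were thus the richer in silk transcripts at both larval stages, and at 1L1D cells with E74, USP, or EcR were the poorer. The latter cells were also deeper before thinning, with a median of 3226, 3325, and 3582 UMIs against 1854 to 1867 in cells without the gene. In the TR-like clusters, which held much of the E74 and USP of that library, the median silk share was 0.262% and 0.675%; the part of gland region in these values was not tested.

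Other genes of the pathway gave a frame for the 5. Of 7 nuclear receptors, 7 were at least 2-fold higher at 1LM than at 1L1D in CPM, beside 59.6% of all genes. Their median log2 ratio was 4.21 against 1.23 for all genes. They were led by the delayed response genes Hr3 (6.94), Grf (6.10), and Ftz-f1 (4.90), then LOC101745996 (4.21), LOC693064 (2.44), and Or (1.78). The last 3 had 15, 12, and 16 UMIs at 1L1D. TMM factors move the ratios of 1LM over 1L1D by -1.13, which leaves Or and Hnf-4 (1.12) under 2-fold. Against E8D 6 of 7 were higher, beside 51.1% of all genes, and none lower. TMM factors move these 6 ratios by -0.86, which leaves Grf (1.52) under 2-fold. Across the 1LM clusters Ftz-f1, a nuclear receptor of the later molt, had r = 0.95 with E74 and 0.81 with EcR. The other delayed response genes had lower values, with 0.48 and 0.33 for Grf and 0.22 and 0.24 for Hr3. Of the genes of ecdysteroid synthesis and breakdown, 4 of 10 had at least 20 UMIs over both libraries. Of these, 3 were at least 2-fold higher at 1LM than at 1L1D, beside 59.6% of all genes. They were Cyp18a1 (4.09), which inactivates ecdysteroids, LOC100302629 (2.04), and Cyp315a1 (1.37). Cyp315a1 had 33 UMIs at 1LM and 18 at 1L1D, and its interval, 0.50 to 2.29, held the 1.23 of the median gene. For LOC100302629 a single 1L1D cell had 72 of the 109 UMIs. The juvenile hormone receptor gene MET1 had a log2 ratio of 1.08, and Kr-h1, its target, 0.46, both below the 1.23 of the median gene, so that their direction turns where ratios are taken relative to it.

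Of 12 autophagy and lysosome genes tested, 7 were at least 2-fold higher at 1LM than at 1L1D and none lower, a share close to the 59.6% of all genes, with a median log2 ratio of 1.65. They were led by LOC692390 (3.48), LOC101740431 (2.42), LOC105842251 (2.29), Caspase1 (2.01), LOC100216353 (1.82), and LOC101738071 (1.70). Of the 2 genes named as ecdysteroid-regulated, LOC692400 was lower (-2.07) and LOC100101154 had 0.45. Of the 6 silk protein genes, Ser2 was higher (1.97), and LOC101740082, which is Ser1 (-1.85), and FIBH (-1.46) were lower. This stands beside 59.6% of all genes higher and 5.61% lower. FIBH-2 (-0.83), Fib-l (-0.72), and P25 (-0.12) were within 2-fold. These ratios are in CPM, and TMM factors move each of them by -1.13. That leaves Ser2 under 2-fold and takes the other silk genes past 2-fold lower. It also turns the direction of genes with smaller positive ratios, Hnf-4 (1.12) among the nuclear receptors.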

How the data were processed

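Cells of dissociated silk glands were read on the 10x Genomics platform, with 1 library per stage. The deposited tables hold whole UMI counts without normalization, from Cell Ranger 3.1.0 and STAR per the submitters' processing notes, on assembly ASM15162v1. The members and gene lists were chosen with earlier results of these data known.

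Barcodes were removed whose UMIs per detected gene lay over 2 SD from the mean or with over 30% mitochondrial UMIs. No doublet caller was run. UMIs were summed over kept cells and divided by the total (CPM). Ratios have exact binomial intervals, with counts under 3 set to 3. A limit of 2-fold was used, without a test. Shares of cells, pairs, and correlations used cells thinned to 1000 UMIs. Cells were clustered within each library, unlike the joined libraries of the study, by Leiden at resolution 0.8 on 2000 variable genes and 30 principal components, without the members and listed genes. A cluster was named for the type with the highest median log2 ratio of its markers, of at least 1, with 3 or more markers detected. It stayed unnamed where its 10 leading genes held more markers of another type, or where its median depth was under the library's divided by 3 with no own marker among them. The handling of undetected markers was changed after a first set of names had been seen. Named genes were the members, up to 6 genes past 2-fold per list, and the 5 nearest genes per member. Functions were tested on simulated data. Python 3.11.15, numpy 2.4.6, scipy 1.17.1, leidenalg 0.10.2, edgeR 4.0.16 (TMM), and DESeq2 1.42.0 (size factors) were used.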

Additional observations from a re-analysis of the deposited data

How the results depend on the processing

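No paired analysis was possible because each stage has 1 library. The count of 4 genes at least 2-fold higher at 1LM than at E8D came to 1, Br-c, with TMM factors, with DESeq2 size factors, and relative to the median gene, the last chosen after the data were seen. These settings shift the median log2 ratio of all genes by -0.86, -0.91, and -1.04. The other counts stayed within 1.5 times the reported one under all alternatives run, which were all deposited barcodes, a mitochondrial limit of 20%, CPM without silk protein or mitochondrial genes, the mean over cells of counts per 10000, leaving out the 5% deepest cells, a limit of 1.5-fold, no minimum for the background, all cells without thinning, cells with at least 1000 UMIs and pair shares within clusters (both added with the data known), thinning to 500 or 2000 UMIs, and the clustering settings. Of 150 log2 ratios of single genes, under settings that can change a ratio, 92 stayed inside the counting interval of the reported value and 58 did not, 14 of 15 under each of these 3 scalings, and no ratio past 2-fold changed sign. Pairs found together at 1LM were 6 of 10 with thinning to 500 UMIs.

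Depth limits USP most, with 76 UMIs at E8D. With 1 library per stage, the variation between pools of glands was not measured.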
